A study of Homo sapiens with 12 samples.

Results

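The genes described here were 9 genes listed together as targets of the transcription factor p53: MDM2, CDKN1A, GDF15, TNFRSF10B, FAS, BBC3, SESN1, BTG2 and FDXR. They were looked up by name among the 18404 genes that had at least 1 probe set with a single gene symbol, taking the brightest such probe set over all arrays. 7 of the 9 genes had one, and BTG2 and FDXR were not analysed here. Each of the 7 measured genes had a single such probe set, so the choice of the brightest decided nothing for them. RNA came from HepG2, a human liver carcinoma cell line, grown as spheroids in stirred flasks and collected at 10 days of age. The 3 groups of 4 arrays were wild type cells, cells with a knockdown of HIF-1α and cells with a knockdown of HIF-2α, and the design text gives the arrays of a genotype as separate spheroid experiments. The sources used here do not give the way each knockdown was made, the number of clones behind it, or whether a control construct was present in the wild type cells. The p-values therefore measure the spread between these spheroid cultures, not between independently derived lines.

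p53 is a transcription factor that accumulates after DNA damage and other stress and switches on genes for cell cycle arrest, DNA repair and cell death. Its level is held down by MDM2, a ubiquitin ligase that is itself a p53 target, so the pathway carries its own brake. GDF15 is a secreted member of the TGF-β superfamily that signals through the receptor GFRAL. It is a p53 target, and it also responds to the integrated stress response, the programme that runs through the transcription factors ATF4 and DDIT3. The hypoxia-inducible factors each carry an α subunit that is destroyed when oxygen is plentiful. HIF1A codes for HIF-1α and EPAS1 for HIF-2α.

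The sequences around the gene starts are shown because p53 binds a known element there in several of these genes. The windows came from RefSeq (GRCh38.p14) and ran from 250 bases before to 50 bases after each annotated start. Of the 9 genes, 8 had at least 1 window, 16 windows in all, and TNFRSF10B had none. A p53 element was counted where 2 adjacent p53 half-sites, 20 bases together, kept the core C and G of each half-site and had at most 3 mismatches. It was found in 5 of the 8 genes, MDM2, GDF15, FAS, SESN1 and FDXR, and in 1.37% of the 27305 genes with a window. The stretches of the 4 measured genes follow 5′ to 3′ on the gene's strand, with the element in capitals. The one of GDF15 stops where its window ends.
MDM2: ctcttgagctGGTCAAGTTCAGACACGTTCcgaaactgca
FAS: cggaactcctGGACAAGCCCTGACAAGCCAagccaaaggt
SESN1: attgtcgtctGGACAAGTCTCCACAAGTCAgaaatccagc
GDF15: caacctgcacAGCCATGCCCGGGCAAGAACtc
The elements lie at chr12:68808923-68808942 on the plus strand for MDM2, chr10:88991309-88991328 on the plus strand for FAS, chr6:109009018-109009037 on the minus strand for SESN1 and chr19:18386186-18386205 on the plus strand for GDF15. Those of MDM2 and FAS had 2 mismatches and those of SESN1 and GDF15 had 3. A match is a likeness of letters and not a measured binding site.

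Of the 7 genes, GDF15 differed most between the groups, so its whole window is given, at chr19:18385908-18386207 on the plus strand, again with the element in capitals.
GDF15 window: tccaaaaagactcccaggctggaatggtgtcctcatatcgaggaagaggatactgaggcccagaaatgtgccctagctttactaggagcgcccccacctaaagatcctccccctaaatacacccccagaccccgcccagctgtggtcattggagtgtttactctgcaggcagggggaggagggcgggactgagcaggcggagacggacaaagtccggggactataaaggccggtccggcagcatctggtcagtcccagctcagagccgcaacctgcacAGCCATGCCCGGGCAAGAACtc
ACGTG and GCGTG, forms of the core letters bound by hypoxia-inducible factors, were searched on both strands; neither was in this window. Neither was TGATGNAA, a core of the element bound by ATF4 and its partners. Among the genes with a window, ACGTG was found in 24.9%, GCGTG in 40.6% and TGATGNAA in 4.46%. In the windows of the other listed genes, ACGTG was found for BBC3, FAS and MDM2, GCGTG for CDKN1A, FAS, MDM2 and SESN1, and TGATGNAA for none.

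The levels are the authors' deposited log2 signals, so a difference of 1 is a doubling, and levels were compared between arrays and not between genes. HIF1A read 10.74, 10.64, 10.79 and 10.62 in wild type replicates 1 to 4, against 9.25, 9.58, 9.38 and 9.64 in HIF-1α knockdown. It fell 2.35-fold there (log2 difference -1.23, SE 0.15, limma with Benjamini-Hochberg adjustment over all genes, adjusted p = 0.00241). EPAS1 read 10.96, 10.83, 10.97 and 11.26 in wild type, against 9.67, 10.02, 9.87 and 9.98 in HIF-2α knockdown. It fell 2.17-fold there (log2 difference -1.12, SE 0.09, limma adjusted p = 0.000206), and neither gene passed the test in the other knockdown. The array medians lay between 7.29 and 7.41. The floor of dim values was raised in 3 arrays, wild type replicates 1 and 2 and replicate 4 of HIF-2α knockdown. On the first principal component replicate 2 of HIF-2α knockdown was far from all others. Hepatocyte markers were bright, with ALB at 13.10 to 14.27, while COL1A2 for fibroblasts (7.01 to 7.16), VWF for endothelium (6.77 to 6.90) and PTPRC for leukocytes (6.41 to 6.70) were dim. Not every marker of those types was dim: LYZ (12.79 to 13.73) and CD68 (9.74 to 10.35) of the leukocyte list were bright, and PECAM1 of the endothelial list read 7.73 to 8.49.

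GDF15 was higher in HIF-1α knockdown and lower in HIF-2α knockdown than in wild type, and the fall passed the test. Its signals in wild type replicates 1 to 4 were 11.13, 11.09, 11.03 and 10.97. They were 11.38, 11.30, 11.78 and 11.36 in HIF-1α knockdown and 10.20, 10.48, 10.36 and 10.23 in HIF-2α knockdown. The 3 groups did not overlap: every HIF-1α knockdown array was above every wild type array, and every HIF-2α knockdown array was below them. The group means were 11.46 ± 0.22 (SD, n = 4) in HIF-1α knockdown, 11.05 ± 0.07 (SD, n = 4) in wild type and 10.32 ± 0.13 (SD, n = 4) in HIF-2α knockdown. Against wild type GDF15 fell 1.67-fold in HIF-2α knockdown (log2 difference -0.74, SE 0.10, 95% interval -0.95 to -0.53, limma adjusted p = 0.00313). In bulk RNA a lower signal from fewer cells of a type and from less RNA per cell cannot be told apart.

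In HIF-1α knockdown GDF15 was 1.32-fold above wild type (log2 difference 0.40, SE 0.10, 95% interval 0.19 to 0.61), which did not pass (limma adjusted p = 0.0714). The highest array, replicate 3 at 11.78, stood apart from the next at 11.38, and without it the difference was 0.293. The contrast of the knockdowns with each other was larger: GDF15 was 2.20-fold lower in HIF-2α than in HIF-1α knockdown (log2 difference -1.14, SE 0.10, 95% interval -1.35 to -0.93, limma adjusted p = 3.66e-05). Without the 3 arrays of raised floor the HIF-2α knockdown difference from wild type was -0.656 and no longer passed (limma adjusted p = 0.123). The difference between the knockdowns was -1.111 there and still passed (limma adjusted p = 0.0048). That fit kept only replicates 3 and 4 of wild type. In it HIF1A did not pass in HIF-1α knockdown against wild type either (limma adjusted p = 0.103). GFRAL, the receptor of GDF15, read 6.39 to 6.60 over the 12 arrays, near the floor.

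**Figure D1:**
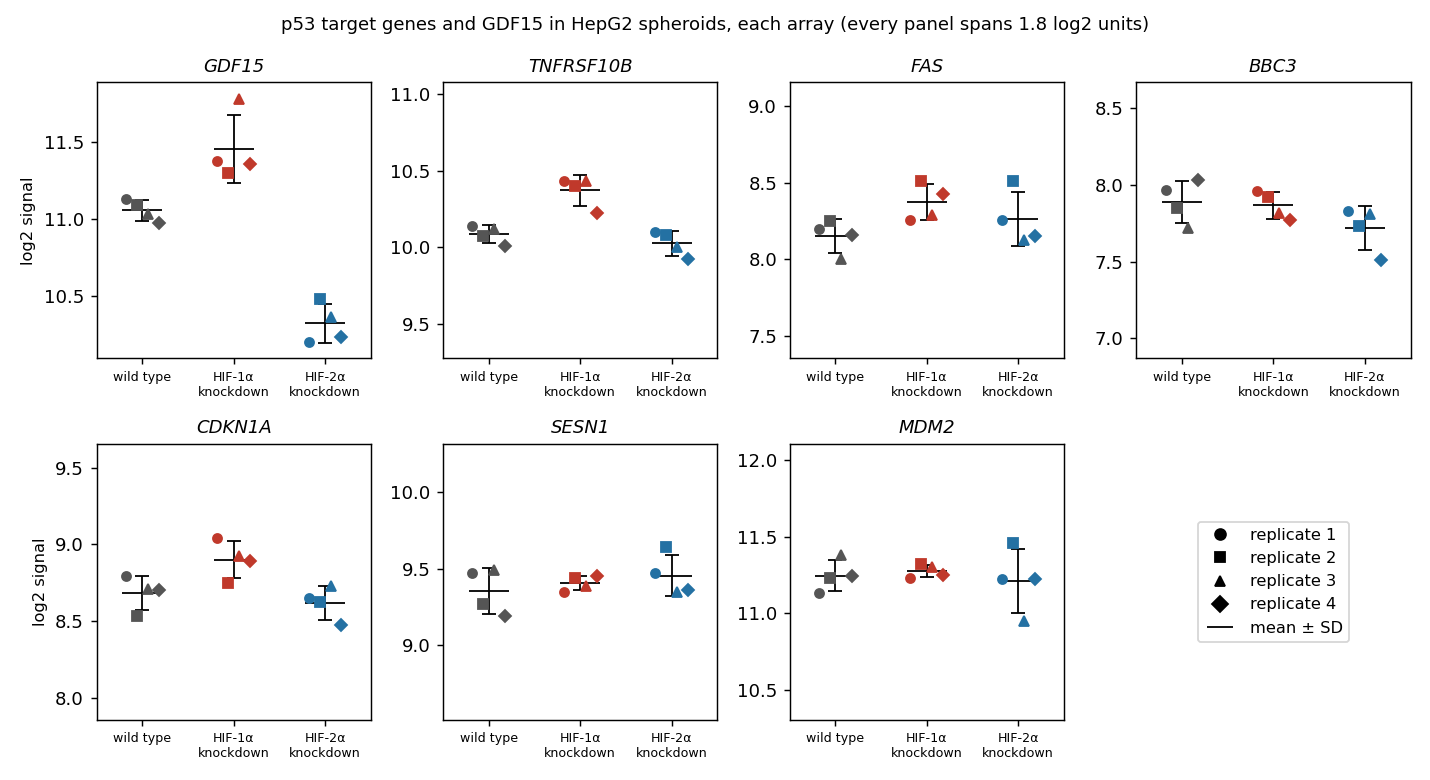
Log2 signal of each measured gene on each of the 12 arrays, with 1 panel per gene, arrays grouped by genotype and every panel spanning the same number of log2 units; points are arrays, with 1 marker shape per replicate number, and bars are group means with their SD. GDF15 separates into 3 levels, with means of 11.46, 11.05 and 10.32, and in TNFRSF10B the HIF-1α knockdown arrays (10.22 to 10.43) lie above those of both other groups.

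TNFRSF10B, the death receptor DR5 that binds the ligand TRAIL, rose in HIF-1α knockdown and was near wild type in HIF-2α knockdown. Its signals were 10.14, 10.07, 10.12 and 10.01 in wild type cultures, 10.43, 10.40, 10.43 and 10.22 in HIF-1α knockdown, and 10.10, 10.08, 10.00 and 9.92 in HIF-2α knockdown. All 4 HIF-1α knockdown arrays were above all arrays of both other groups, which overlapped with each other. The rise over wild type was 1.22-fold (log2 difference 0.29, SE 0.06, 95% interval 0.15 to 0.42) and passed narrowly (limma adjusted p = 0.0476). Between the knockdowns TNFRSF10B was 1.27-fold lower in HIF-2α knockdown (log2 difference -0.34, SE 0.06, 95% interval -0.48 to -0.21, limma adjusted p = 0.00959). HIF-2α knockdown differed from wild type by -0.06 (95% interval -0.19 to 0.08, limma adjusted p = 0.791). The rise over wild type did not pass after quantile normalization (log2 difference 0.207, limma adjusted p = 0.194) or median centring of the arrays (0.267, adjusted p = 0.14). It was lost in 7 of the 12 fits that each left out 1 array: wild type replicate 1, 2 or 4, HIF-1α knockdown replicate 1, 2 or 3, or HIF-2α knockdown replicate 3.

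None of the 12 measured hepatocyte markers passed in any of the 3 comparisons in limma on the deposited values. At an unadjusted p under 0.05 were 6, 0 and 3 of them, against 13.2%, 12% and 13.6% of all genes. All 12 were lower in HIF-1α knockdown than in wild type, with a median log2 difference of -0.33, and 11 of 12 were lower in HIF-2α knockdown than in wild type (median -0.12). Between the knockdowns 11 of 12 were higher in HIF-2α knockdown (median 0.27). Over all genes 52%, 44.6% and 44.7% had a difference above 0 in these 3 comparisons. After quantile normalization the medians of the 12 markers were -0.09, -0.04 and 0.02. In that setting 1 of the 12 passed as lower in HIF-1α knockdown against wild type. Between the knockdowns 1 passed there as higher in HIF-2α knockdown. Their mean signal per array ranged from 12.54 to 13.06 in wild type, 12.24 to 12.58 in HIF-1α knockdown and 12.29 to 12.90 in HIF-2α knockdown. The leukocyte marker CD14 had differences of the same signs as TNFRSF10B and GDF15 between the knockdowns, falling by 0.39 from HIF-1α to HIF-2α knockdown (limma adjusted p = 0.00899), and the fibroblast marker PDGFRB fell by 0.40 in HIF-2α knockdown against wild type (limma adjusted p = 0.0109). Neither passed without the 3 arrays of raised floor (limma adjusted p = 0.0555 and 0.0974). Both were dim, at 7.04 to 7.63 and 7.07 to 7.64 over the 12 arrays, where the array medians were 7.29 to 7.41. The part of these markers in the differences of GDF15 and TNFRSF10B was not tested.

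FAS, the receptor of the death ligand FASLG, read 8.20, 8.25, 8.0 and 8.16 in wild type cultures, 8.26, 8.51, 8.29 and 8.43 in HIF-1α knockdown, and 8.26, 8.51, 8.13 and 8.15 in HIF-2α knockdown. The lowest HIF-1α knockdown array was only just above the highest wild type array, and the HIF-2α knockdown arrays overlapped with both other groups. The difference between HIF-1α knockdown and wild type was 0.22 (95% interval 0.03 to 0.42) and did not pass (limma adjusted p = 0.277). BBC3, which encodes PUMA, a BH3-only protein that triggers mitochondrial cell death, read 7.97, 7.85, 7.72 and 8.03 in wild type cultures, 7.96, 7.92, 7.82 and 7.77 in HIF-1α knockdown, and 7.83, 7.73, 7.81 and 7.51 in HIF-2α knockdown. Its groups overlapped in every pairing. The BBC3 differences were -0.02 (95% interval -0.20 to 0.15) for HIF-1α knockdown against wild type and -0.17 (-0.35 to 0.01) for HIF-2α knockdown against wild type. Neither passed (limma adjusted p = 0.939 and 0.445).

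CDKN1A encodes p21, the inhibitor of cyclin-dependent kinases through which p53 stops the cell cycle. It read 8.79, 8.53, 8.71 and 8.70 in wild type cultures, 9.04, 8.75, 8.92 and 8.89 in HIF-1α knockdown, and 8.65, 8.62, 8.73 and 8.47 in HIF-2α knockdown. The knockdown groups did not overlap with each other, and each overlapped with wild type. The differences from wild type were 0.22 in HIF-1α knockdown (95% interval 0.06 to 0.38, limma adjusted p = 0.193) and -0.06 in HIF-2α knockdown (95% interval -0.23 to 0.10, limma adjusted p = 0.813). Between the knockdowns the difference was -0.28, or 1.22-fold lower in HIF-2α knockdown (95% interval -0.44 to -0.12), and missed the threshold (limma adjusted p = 0.0664). It passed after quantile normalization (log2 difference -0.263, limma adjusted p = 0.0493) and without wild type replicate 2 (-0.282, limma adjusted p = 0.0498).

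SESN1, a sestrin that restrains the growth kinase complex mTORC1, read 9.47, 9.27, 9.49 and 9.19 in wild type cultures, 9.35, 9.44, 9.39 and 9.45 in HIF-1α knockdown, and 9.47, 9.64, 9.35 and 9.36 in HIF-2α knockdown. The groups overlapped throughout, and the HIF-2α knockdown difference from wild type was 0.10 (95% interval -0.07 to 0.27, limma adjusted p = 0.697). MDM2 read 11.13, 11.23, 11.38 and 11.24 in wild type cultures, 11.23, 11.32, 11.30 and 11.25 in HIF-1α knockdown, and 11.22, 11.46, 10.95 and 11.22 in HIF-2α knockdown. The MDM2 groups overlapped too: its widest spread, from 10.95 to 11.46, was within HIF-2α knockdown. Its differences from wild type were 0.03 in HIF-1α knockdown (95% interval -0.16 to 0.23, limma adjusted p = 0.918) and -0.03 in HIF-2α knockdown (95% interval -0.22 to 0.16, limma adjusted p = 0.933). These intervals leave room for changes of the sizes they span, and the signs of the MDM2, SESN1 and BBC3 differences from wild type in HIF-1α knockdown turned when single arrays were left out.

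Counted together, 1 of the 7 measured genes passed in HIF-1α knockdown against wild type (TNFRSF10B, higher), where 0.962% of all genes passed and 0.815% passed as higher. In HIF-2α knockdown against wild type 1 of 7 passed (GDF15, lower), where 0.788% of all genes passed and 0.31% passed as lower. Between the knockdowns 2 of 7 passed (GDF15 and TNFRSF10B, both lower in HIF-2α knockdown), where 2.77% of all genes passed and 1.8% passed as lower. By the arrays, 3 of 7 genes were higher without overlap in HIF-1α knockdown than in wild type (GDF15, TNFRSF10B and FAS), against 5.73% of all genes. In HIF-2α knockdown 1 of 7, GDF15, was lower than wild type without overlap, against 1.91% of all genes. Between the knockdowns 3 of 7 were lower without overlap in HIF-2α knockdown (GDF15, TNFRSF10B and CDKN1A), against 5.35% of all genes. The median log2 differences of the 7 genes were 0.22, -0.06 and -0.14 in these comparisons, beside 0.00, -0.01 and -0.01 over all genes. They were 0.14, -0.12 and -0.13 after quantile normalization and 0.20, -0.04 and -0.07 without the 3 arrays of raised floor. The HIF-1α and HIF-2α comparisons share the wild type arrays. The listed genes were chosen with earlier results of these data known, so these counts are not a test against all genes.

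**Figure D2:**
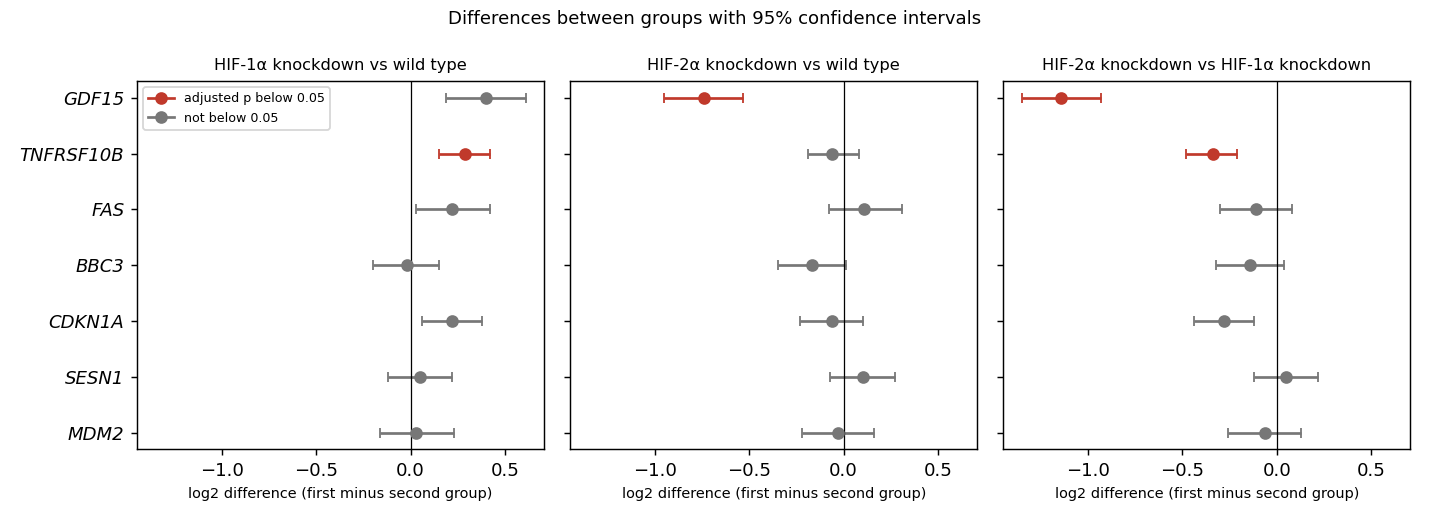
Log2 difference of each measured gene in each of the 3 comparisons, with points for the difference and horizontal bars for its 95% confidence interval from limma, red where the adjusted p is below 0.05. The interval of GDF15 lies below 0 in HIF-2α knockdown against wild type (-0.95 to -0.53), while those of MDM2 and SESN1 span 0 in all 3 comparisons.

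Other genes of the p53 pathway passed the test in few cases. Among the 17 of 19 measured core genes and regulators, RPL11, a ribosomal protein that binds and inhibits MDM2, fell in HIF-1α knockdown against wild type. It read 12.29, 12.05, 12.17 and 12.08 in wild type against 11.23, 11.20, 11.64 and 11.41 in HIF-1α knockdown, with no overlap (log2 difference -0.78, SE 0.16, limma adjusted p = 0.0368). It was higher in HIF-2α than in HIF-1α knockdown by 0.76 (limma adjusted p = 0.0206). The fall did not pass after median centring (limma adjusted p = 0.087), without the 3 arrays of raised floor (0.204), or in 7 of the 12 fits that left out 1 array, those without wild type replicate 1, 2 or 4 or any HIF-1α knockdown replicate (0.0566 to 0.129). The difference between the knockdowns did not pass without the 3 arrays (0.143), with only the 2 groups fitted (0.0614), or without HIF-1α knockdown replicate 1 or 2 or HIF-2α knockdown replicate 2 or 4 (0.0552 to 0.0704). Of the 31 measured ribosomal protein genes 30 had a difference below 0 in HIF-1α knockdown against wild type. Their median was -0.44, which was -0.17 after quantile normalization. Over all genes 8837 of 18404 were below 0 there. RPL11 alone of the 31 passed in that comparison. RPL5, its partner in binding MDM2, was 0.50 lower without passing (log2 difference -0.50, limma adjusted p = 0.189). MDM4, the MDM2 relative that masks p53, and PPM1D, a phosphatase that switches the pathway off, had differences of 0.26 (limma adjusted p = 0.0822) and 0.35 (limma adjusted p = 0.138) in HIF-1α knockdown against wild type.

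On the deposited values none of 22 further targets for arrest and repair passed in limma in any comparison. At an unadjusted p under 0.05 were 4 in HIF-1α knockdown and 2 in HIF-2α knockdown against wild type, and 1 between the knockdowns. Over all genes that share was 13.2%, 12% and 13.6%. In HIF-1α knockdown 18 of the 22 were above wild type, with a median of 0.06, against 52.0% of all genes above wild type. That count was 14 of 22 after quantile normalization, when 1 of them passed as lower. Without the 3 arrays of raised floor it was 13 of 22, and 1 passed as lower. With the replicate number as a block in the fit it was 18 of 22, and 1 passed as higher. On the deposited values, examples from HIF-1α knockdown against wild type were TP53INP1 (0.29, limma adjusted p = 0.096), ZMAT3 (0.28, 0.184) and RRM2B (0.33, 0.172). SFN had a difference of -0.35 there (limma adjusted p = 0.145). Of the 20 of 21 measured targets for death and metabolism none passed against wild type in limma on the deposited values. There 5 in HIF-1α knockdown and 6 in HIF-2α knockdown were at an unadjusted p under 0.05. TIGAR, which lowers glycolytic flux, came closest, with 0.46 in HIF-1α knockdown (limma adjusted p = 0.0633). With the replicate number as a block, 1 of the 20 passed as higher in HIF-1α knockdown against wild type. Between the knockdowns 1 passed as higher and 1 as lower with that block.

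PMAIP1, which encodes the BH3-only protein NOXA, passed between the knockdowns, in the direction opposite to TNFRSF10B. It read 7.09, 7.11, 7.09 and 7.06 in HIF-1α knockdown and 7.26, 7.61, 7.32 and 7.40 in HIF-2α knockdown, without overlap (log2 difference 0.31, SE 0.07, limma adjusted p = 0.0248). PMAIP1 was dim: its signals were below the array medians (7.29 to 7.41) in HIF-1α knockdown and around them in HIF-2α knockdown. It did not pass after median centring (limma adjusted p = 0.0709), without the 3 arrays of raised floor (0.121), with only the 2 groups fitted (0.0533), or without any one HIF-1α knockdown replicate or HIF-2α knockdown replicate 4 (0.0591 to 0.0807). PMAIP1 was the only call on the deposited values among the 14 of 15 measured BCL2 family genes in any of the 3 comparisons. In the death receptor pathway, 10 of 13 listed genes were measured, and TNFRSF21, the death receptor DR6, passed beside TNFRSF10B. Its signals were 9.88, 9.80, 9.89 and 9.97 in wild type cultures, 10.20, 10.16, 10.17 and 10.14 in HIF-1α knockdown, and 9.89, 9.91, 9.88 and 9.72 in HIF-2α knockdown. It rose in HIF-1α knockdown against wild type (log2 difference 0.28, SE 0.06, limma adjusted p = 0.0326) and was lower in HIF-2α than in HIF-1α knockdown (log2 difference -0.32, limma adjusted p = 0.00796). The rise did not pass after quantile normalization (limma adjusted p = 0.119) or median centring (0.0771), with an eBayes trend (0.179), without the 3 arrays of raised floor (0.127), or without wild type replicate 1 or 2 or any one HIF-1α knockdown replicate (0.076 to 0.108). The difference between the knockdowns did not pass with the trend (0.091). All 10 measured genes of that list were lower in HIF-2α than in HIF-1α knockdown, with a median of -0.10. Of them 1 passed (2 after quantile normalization). Over all genes 10185 of 18404 were lower in that comparison, the median was -0.01, and 2.77% passed. TNFSF10, which encodes TRAIL, the ligand of TNFRSF10B, differed by -0.30 there (limma adjusted p = 0.0537). TNFRSF10D, a decoy receptor of TRAIL, differed by -0.37 (limma adjusted p = 0.15).

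The integrated stress response, a second route to GDF15, was followed with a list of 14 genes, all measured. The list was not limited to genes specific to that response: the immediate early factor EGR1 was on it. On the deposited values none of the 14 passed against wild type in limma. At an unadjusted p under 0.05 were 4 in HIF-1α knockdown and 2 in HIF-2α knockdown. Between the knockdowns 7 of the 14 were at an unadjusted p under 0.05 in limma. Over all genes these shares were 13.2%, 12% and 13.6%. After quantile normalization 1 of the 14 passed as lower in HIF-2α knockdown against wild type. By the arrays 3 of the 14 were lower and 1 higher without overlap in HIF-2α than in HIF-1α knockdown, against 984 and 687 of all 18404 genes. DDIT3, the response's transcription factor CHOP, had a difference of 0.32 in HIF-1α knockdown against wild type (limma adjusted p = 0.0848). Between the knockdowns it differed by -0.31 (limma adjusted p = 0.0612), and its knockdown groups did not overlap. In HIF-1α knockdown against wild type DDIT4 (-0.30, limma adjusted p = 0.124), the lipoprotein receptor VLDLR (-0.22, 0.162) and ATF4 (-0.16, 0.689) went the other way. EGR1, like DDIT3, was above wild type there without overlap (0.25, limma adjusted p = 0.0941). There 9 of the 14 were above wild type and 5 below, where 52% of all genes were above. By the arrays 2 were higher and 2 lower without overlap, against 1055 and 388 of all 18404 genes. In HIF-2α knockdown 4 of the 14 were above wild type and 10 below, where 44.6% of all genes were above. PPP1R15A read 8.02, 7.97, 7.95 and 7.79 there, below every array of both other groups. It did not pass in limma on the deposited values. It was the only 1 of the 14 below wild type without overlap, against 1.91% of all genes. Between the knockdowns VLDLR was higher in HIF-2α knockdown by 0.47 (limma adjusted p = 0.00327). Its signals were dim in HIF-1α knockdown, at 7.20, 7.25, 7.16 and 7.32, below the array medians. They were 7.72, 7.83, 7.73 and 7.54 in HIF-2α knockdown. The immediate early factor EGR1 was lower by 0.29 (log2 difference -0.29, limma adjusted p = 0.0306). The EGR1 difference did not pass after median centring (limma adjusted p = 0.0742), without the 3 arrays of raised floor (0.11), or without HIF-1α knockdown replicate 1, 2 or 3 or HIF-2α knockdown replicate 1, 3 or 4 (0.0576 to 0.122), while VLDLR passed in all 8 alternatives and all 12 fits without 1 array. The list's median was -0.04 in that comparison, with 7 of 14 genes on each side of 0.

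Cell cycle genes around CDKN1A did not pass on the deposited values. Of the 15 of 16 measured CDK inhibitors, G1 cyclins and their partners, none passed in limma in any comparison. At an unadjusted p under 0.05 were 2, 4 and 3 of them. After quantile normalization 1 of the 15 passed as higher in HIF-2α than in HIF-1α knockdown. Cyclin D1, CCND1, had a difference of -0.32 in HIF-2α knockdown against wild type, its arrays not overlapping (limma adjusted p = 0.0929). Of the 15 genes that p21 represses through the DREAM complex none passed in limma in any comparison, with 1, 2 and 1 at an unadjusted p under 0.05. Their median was 0.06 in HIF-1α knockdown against wild type and turned to -0.01 after quantile normalization. In HIF-2α knockdown 12 of the 15 were above wild type, against 44.6% of all genes, with a median of 0.09 (0.02 after quantile normalization). Between the knockdowns 8 of the 15 were higher in HIF-2α knockdown, against 44.7% of all genes, with a median of 0.07 (0.03 after quantile normalization). CDK1, the mitotic kinase, had the largest difference in HIF-1α knockdown against wild type among those named, at 0.50 (limma adjusted p = 0.125). Among relatives of the listed genes, such as other sestrins and BTG proteins, 16 of 17 were measured. None passed in limma on the deposited values, with 2, 1 and 4 at an unadjusted p under 0.05. Between the knockdowns 1 passed as lower after quantile normalization, and 1 with the replicate number as a block.

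**Figure D3:**
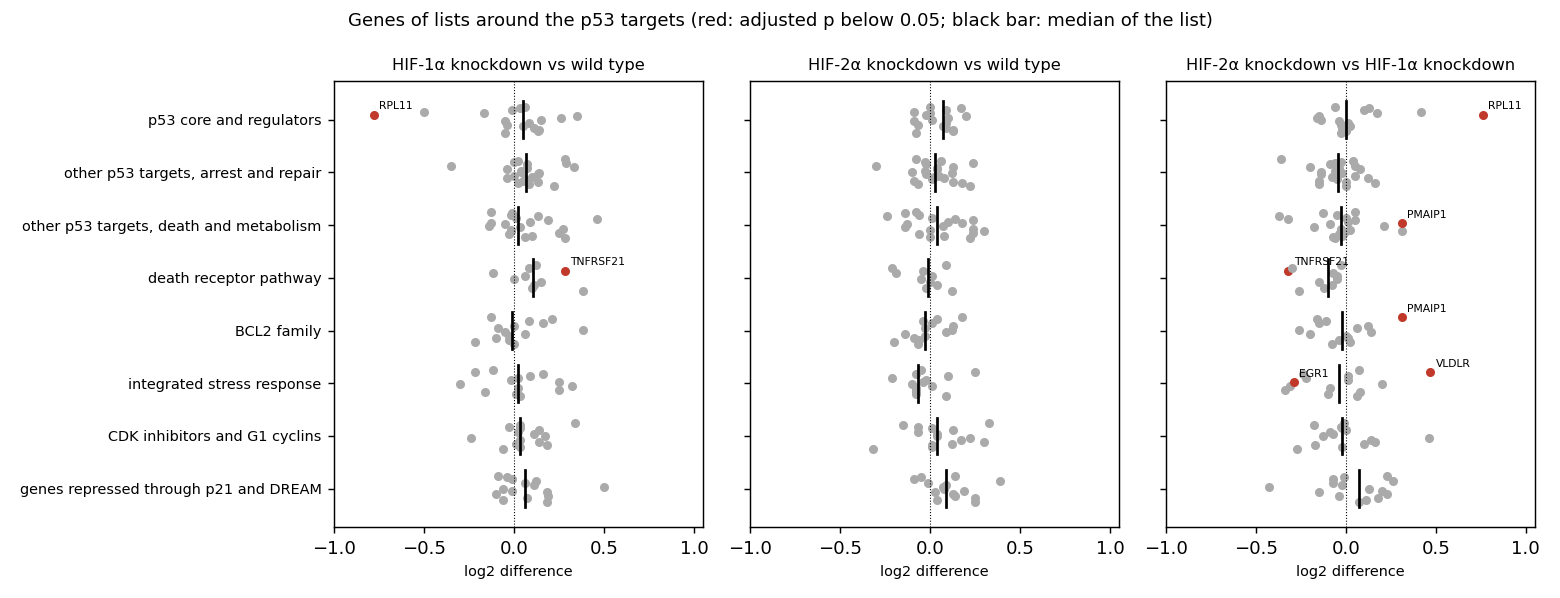
Log2 difference of every measured gene in 8 lists around the p53 targets, with 1 panel per comparison; grey points are genes that did not pass, red points are genes with a limma adjusted p below 0.05, and black bars are list medians. Most genes lie close to 0, and the named red points are RPL11 and TNFRSF21 in HIF-1α knockdown against wild type and RPL11, PMAIP1, TNFRSF21, VLDLR and EGR1 between the knockdowns.

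For the 3 genes with the largest SD over the 12 arrays, the 3 genes closest in pattern were found by the root mean square difference between log2 profiles centred on their means. For GDF15, whose SD was 0.512, they were PIM1, a survival kinase (0.17), SERPINE2, a protease inhibitor (0.194), and HEY1, a Notch target (0.221). SERPINE2 read 8.13, 8.14, 8.24 and 8.07 in wild type cultures, 8.46, 8.64, 8.58 and 8.57 in HIF-1α knockdown, and 7.74, 7.89, 7.57 and 7.59 in HIF-2α knockdown. Like GDF15 it lay on 3 levels without overlap, and PIM1 had means of 9.62, 9.98 and 9.06 in the same order of groups. For TNFRSF10B (SD 0.173) the closest were PARD6B and FICD (0.068 each) and TNFRSF21 (0.07). For CDKN1A (SD 0.16) they were GALNS (0.061), YWHAG and HUNK (0.063 each). These distances describe the same 12 arrays and carry no test.

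**Figure D4:**
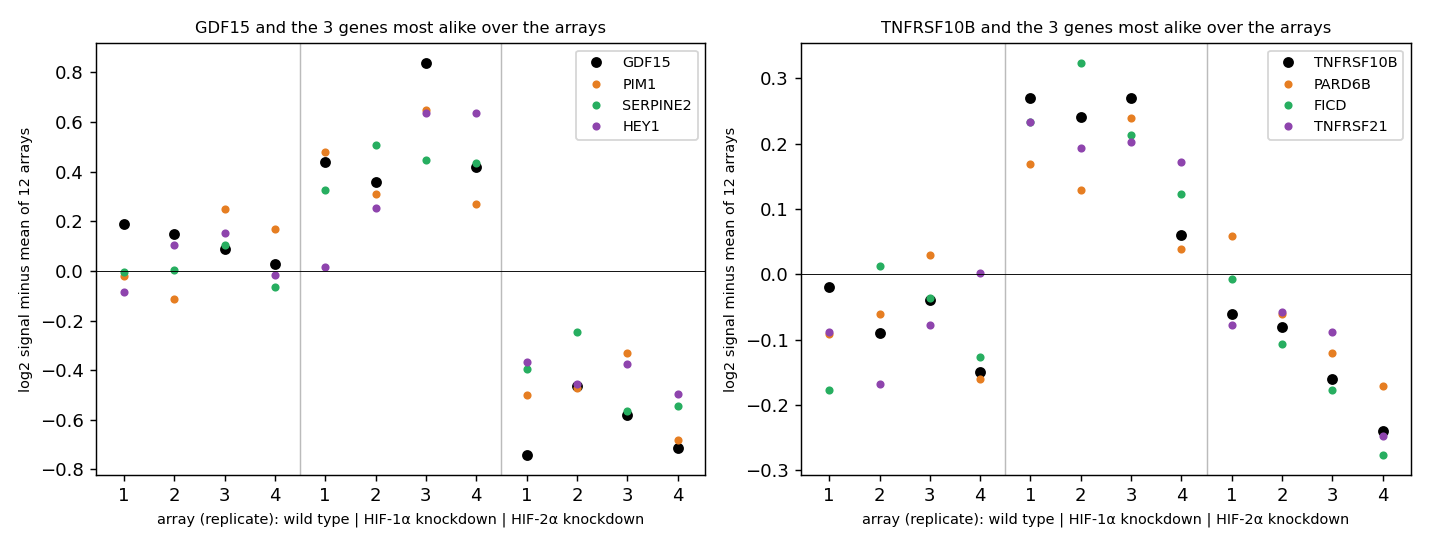
Log2 signal minus the mean of 12 arrays for GDF15 and TNFRSF10B and for the 3 genes most alike to each, by array; each point is 1 array, and vertical grey lines separate the 3 groups. By group mean GDF15, PIM1, SERPINE2 and HEY1 are highest in HIF-1α knockdown and lowest in HIF-2α knockdown, and TNFRSF10B, PARD6B, FICD and TNFRSF21 are highest in HIF-1α knockdown.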

How the data were processed

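RNA of 12 HepG2 spheroid samples was amplified, biotin-labelled and measured on Affymetrix arrays, per the labels' protocols. The deposited table holds log2 values of 32321 probe sets, made by the authors. The sources used here do not give the background correction, summarization, normalization or genome build. That the logarithm has base 2 was read from the range of 5.93 to 15.05. No counts or depths exist, so the number of arrays limits the precision. Of the probe sets, 19158 had 1 gene symbol, 1388 several and 11775 none; symbols were updated through Entrez identifiers in a RefSeq table (19128 matched, 4 more by symbol, 26 kept). The brightest probe set over the arrays stood for each of 18404 genes. limma 3.58.1 in R 4.3.3 fitted 1 mean per group over the 12 arrays, with eBayes and Benjamini-Hochberg adjustment over all genes; a gene was called at an adjusted p below 0.05, with no filter on dim genes. The fit was tested on simulated data.

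The listed genes and gene lists were chosen with earlier results of these data known. Named were the listed genes, HIF1A and EPAS1, and from each list the called genes and up to 4 others by smallest p. The 3 genes most alike to each of the 3 most variable genes were named too. Not every gene so picked was printed. GFRAL, TNFRSF10D and the marker genes printed as floors were chosen for their role. ATF4 was named outside these rules. Alternatives were quantile normalization, median centring, the mean of a gene's probe sets, leaving out genes below the 25th percentile, only the 2 groups compared, an eBayes trend, the replicate number as a block, leaving out the 3 arrays with a raised floor, and leaving out each array.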

Additional observations from a re-analysis of the deposited data

Results flagged for a closer look

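4 results stood out. In HIF-1α knockdown, GDF15 of replicate 3 (11.78) lay far above the other 3 arrays (11.30 to 11.38), its gap to them being 0.838 of the group's range. In the same group, TNFRSF10B of replicate 4 (10.22) lay far below the others (10.40 to 10.43), with a gap of 0.831 of the range. Both are above Dixon's 95% critical value for 4 samples. Chance alone marks about 1 in 20 groups, and 21 gene-by-group sets were looked at. The effects of the knockdowns differed from each other in the direct contrast of HIF-2α with HIF-1α knockdown: the log2 difference was -1.14 for GDF15 and -0.34 for TNFRSF10B.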

How the results depend on the processing

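The GDF15 difference between the knockdowns passed in all 8 alternatives (-1.20 to -1.11) and all 12 fits without 1 array (-1.19 to -1.03). Its fall in HIF-2α knockdown against wild type passed in 7 of 8 (-0.78 to -0.66) and in all 12 (-0.79 to -0.70). Its difference in HIF-1α knockdown against wild type passed in none (adjusted p 0.0527 to 0.253 and 0.0534 to 0.164). The number of listed genes called in HIF-1α knockdown against wild type was 0, from 1, with quantile normalization, median centring, dim genes left out (TNFRSF10B adjusted p = 0.0502), an eBayes trend (0.194) and without the 3 arrays of raised floor (0.174), and 0 to 1 without single arrays. In HIF-2α knockdown against wild type it was 0 without those 3 arrays, and 1 to 1 without single arrays. Between the knockdowns it was 1 with the trend (TNFRSF10B adjusted p = 0.0793) and without those 3 arrays (0.0551), and 2 to 3 without single arrays. HIF1A in HIF-1α knockdown against wild type was -1.243 without those 3 arrays (adjusted p = 0.103), with fewer arrays to test; the cause was not tested further.

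Signs turned only in small, uncalled differences. In HIF-1α knockdown against wild type they were SESN1 (-0.039 with quantile normalization, -0.003 to 0.098 without single arrays), MDM2 (-0.032 without the 3 arrays, -0.005 to 0.08 without single arrays) and BBC3 (-0.083 to 0.02 without single arrays). In HIF-2α knockdown against wild type MDM2 ranged from -0.113 to 0.058 without single arrays. Between the knockdowns SESN1 ranged from -0.013 to 0.082 and MDM2 from -0.147 to 0.024 without single arrays. The causes were not tested.

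Deviations of same-numbered arrays from their group means had correlations of -0.171 to 0.637: 3 of 4 were above 0 between wild type and HIF-1α knockdown, 4 of 4 between the knockdowns and 0 of 4 between wild type and HIF-2α knockdown. Arrays with different numbers had correlations of -0.597 to 0.574. The labels do not say that equal numbers share a culture day, so the numbers were not taken as pairs. With the replicate block, 1, 1 and 3 listed genes were called, the third comparison gaining CDKN1A (-0.282, adjusted p = 0.0409). The TNFRSF21 rise in HIF-1α knockdown against wild type did not pass with the block (adjusted p = 0.0608). All genes called, 177, 145 and 509 in the 3 comparisons (150, 88 and 178 of them higher), were 254, 404 and 888 with quantile normalization (140, 141 and 342 higher), 85, 72 and 337 with median centring (67, 34 and 133 higher), 22, 37 and 259 without the 3 arrays, and 50 to 483, 61 to 219 and 211 to 618 without single arrays. In HIF-1α knockdown against wild type 396 were called when only those 2 groups were fitted. In HIF-2α knockdown against wild type it was 64 for such a fit and 286 with the trend.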
